A study of Mus musculus with 6 samples.

Results

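The V (variable) segments of the mouse immunoglobulin kappa light chain locus were examined as they stand in a gene count table of 6 bulk RNA-seq libraries. Members were the table's rows that GENCODE M21, an annotation of mouse build mm10, gives the biotype IG_V_gene and a symbol beginning with Igkv. There were 100 such rows among 55401, in 20 sequence families (the number after Igkv). The 60 Igkv rows annotated as pseudogenes were kept apart.

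The 3 LSK libraries came from untreated wild-type C57BL/6 mice of 6 to 8 weeks, and held bone marrow cells sorted as Lin-Sca-1+c-Kit+ (no lineage markers, with Sca-1 and c-Kit), the fraction that contains haematopoietic stem and progenitor cells. The 3 ESC-derived libraries held Lin-Sca-1+c-Kit- cells, labelled wild type. They were sorted from the marrow of primary recipients transplanted with CD144+ cells made by differentiating embryonic stem cells (ESCs). Both groups thus shared the gates on lineage markers and Sca-1, and differed in the c-Kit gate, source, and transplantation. Each library was made from 2000 cells. No label says that the replicates of a group came from separate animals, so p-values measure only the spread between these libraries, which may be technical.

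A kappa chain gene is assembled in developing B cells when the RAG recombinase joins 1 V segment to 1 of the short J (joining) segments that lie upstream of the constant exon Igkc. Segments in the same transcriptional direction as Igkc are joined by deletion of the DNA between, and those in the opposite direction by inversion. A B cell clone carries 1 productive kappa rearrangement as a rule, and plasma cells transcribe it at very high levels. Haematopoietic stem cells and T cells make no functional kappa chain.

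The members span 3.15 Mb of chromosome 6, from 18.4 to 3166.3 kb from Igkj1, the J segment nearest to them. In M21, 38 lie in the direction of Igkc and 62 in the opposite one. Their exons total 338 to 501 bases (median 362), and the coding sequence read for each of the 100, from 1 transcript per member, begins with ATG. Each V exon ends with a codon for the conserved cysteine that opens the third complementarity-determining region (CDR3), followed by the few germline bases that enter CDR3. The last 75 coding bases are shown for the segments that led a library or differed most between libraries, from the GENCODE M21 transcripts, 5′ to 3′ on the coding strand, with the cysteine codon in capitals. These are germline sequences, and no rearranged or mutated sequence is in the count table.
Igkv1-135: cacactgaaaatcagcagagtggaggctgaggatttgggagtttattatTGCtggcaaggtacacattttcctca
Igkv14-126: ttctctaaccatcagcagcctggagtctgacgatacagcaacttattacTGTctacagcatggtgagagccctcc
Igkv15-103: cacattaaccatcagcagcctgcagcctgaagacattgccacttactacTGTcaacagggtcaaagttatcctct
Igkv9-123: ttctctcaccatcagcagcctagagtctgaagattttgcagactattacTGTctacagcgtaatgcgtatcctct
Igkv13-84: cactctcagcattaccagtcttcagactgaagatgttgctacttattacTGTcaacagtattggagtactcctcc
Igkv4-59: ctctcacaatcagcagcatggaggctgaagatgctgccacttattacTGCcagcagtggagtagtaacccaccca
Igkv4-50: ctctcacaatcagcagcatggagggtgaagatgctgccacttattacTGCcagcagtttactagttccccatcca
Igkv3-5: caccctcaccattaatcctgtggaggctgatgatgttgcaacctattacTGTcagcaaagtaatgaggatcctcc
Igkv8-24: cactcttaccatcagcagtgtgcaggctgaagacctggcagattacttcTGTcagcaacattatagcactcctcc

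On mm10 these stretches lie at chr6:67610434-67610508 (Igkv1-135, plus strand), chr6:67896568-67896642 (Igkv14-126, plus), chr6:68437851-68437925 (Igkv15-103, plus), chr6:67954228-67954302 (Igkv9-123, minus), chr6:68939993-68940067 (Igkv13-84, plus), chr6:69438218-69438292 (Igkv4-59, minus), chr6:69700767-69700841 (Igkv4-50, minus), chr6:70663821-70663895 (Igkv3-5, plus) and chr6:70216858-70216932 (Igkv8-24, minus). Segment identity matters for the values, since reads from near-identical copies can be assigned to the wrong one. Over the last 290 coding bases the nearest other member was 66.2 to 99.0% identical (median 94.3%), and 46 members had one at 95% or more. A 100-base window shared exactly with another Igkv gene occurred in 44 members and in none of the other 56. Igkv1-135 was 96.2% identical to Igkv1-133, but only 1.4% of its windows were shared. Igkv14-126 and Igkv15-103 were at most 91.0% and 75.9% identical to another member and shared no window. Igkv13-84 shared 37.9% of its windows, and its nearest copy, Igkv13-85, had 0 counts in all 6 libraries.

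The most alike pair, Igkv5-43 and Igkv5-45, differed at 3 of 290 bases, and their last 75 are the same.
Igkv5-43: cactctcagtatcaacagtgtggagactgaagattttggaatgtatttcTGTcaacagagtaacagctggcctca
Igkv5-45: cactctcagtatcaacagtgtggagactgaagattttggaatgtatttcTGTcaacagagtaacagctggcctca
These stretches lie at chr6:69823355-69823429 and chr6:69775750-69775824, both on the minus strand. Igkv5-43 had 192, 4027 and 7415 counts in LSK 1 to 3, and Igkv5-45 had 63, 100 and 1125. Their separate values are uncertain to the extent that reads of one were counted for the other, as are those of the 44 members with a shared window.

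Total counts were 41580006 to 49269286 per library. The table's header gives the 6 column names in a single field, and columns were assigned in the order of those names. Kit, which encodes c-Kit, had 2081, 2171 and 2550 counts in the LSK columns and 2, 4 and 6 in the ESC-derived columns, which goes with the gates. Defining markers were then checked against the labels. The 8 stem cell markers summed to 1704 to 1834 CPM (counts relative to TMM-scaled library sizes) in LSK libraries and 0.428 to 7.86 in ESC-derived libraries, where Hoxa9 was at 0. Most of the LSK sum was Flt3 and Cd34, at means of 924 and 592 CPM, while Hlf, Procr and Mecom had means of 34.4, 29.8 and 17.3 CPM. The 10 T cell markers summed to 143 to 181 CPM in LSK and 14854 to 15736 in ESC-derived libraries, although the ESC-derived gate is labelled lineage-negative. The 13 B cell markers summed to 512 to 578 CPM in LSK libraries and 10.7 to 17.6 in ESC-derived libraries.

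Libraries stood apart within both groups. LSK 2 lay between LSK 1 and LSK 3 for 71 of the 84 members with LSK counts (84.5%), and for 61.4% of all 16211 tested genes, whereas LSK 1 and LSK 3 lay between the other 2 libraries for 18.4% and 18.0% of tested genes. If LSK 2 is a mixture of the others, the spread among LSK libraries is understated and p-values come out too low. ESC-derived 3 held 63.4% of the Igkv counts of its group. Main counts and the folds of the leading segments are given with and without the library they rest on.

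Kappa V transcripts were abundant in all 3 LSK libraries and close to 0 in the ESC-derived ones. The members together took 931097, 986499 and 1191176 counts in LSK 1 to 3, which was 2.18, 2.37 and 2.68% of all counts. In ESC-derived 1 to 3 they took 899, 549 and 2507 counts, or 0.00194, 0.00114 and 0.00509%. The groups did not overlap, and the LSK mean of 2.41% ± 0.252 stood against 0.00272% ± 0.00209 (SD, n = 3 libraries a group, as for every ± on CPM or shares). Since these are bulk libraries, fewer kappa-expressing cells and less kappa RNA per cell cannot be told apart.

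Of the 100 members, 85 had counts in some library and 15 were at 0 in all 6, among them the only members of families 7, 18 and 20. In LSK libraries 84 members had counts, 65 of them in all 3 libraries. Numbers detected were 70, 81 and 79 in LSK 1 to 3 and 5, 9 and 45 in ESC-derived 1 to 3. Of the segments in ESC-derived 3, 37 had counts in no other ESC-derived library. ESC-derived 3 also had counts for 3 of the 5 segments of ESC-derived 1 and for 6 of the 9 of ESC-derived 2, and 1 member, Igkv14-111, had counts in all 3. The 1 member with ESC-derived counts and none in LSK, Igkv8-26, had 5 counts in ESC-derived 2, which is below the floor of 12 counts over a group (3 fragments, at about 4 counts per fragment).

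**Figure D1:**
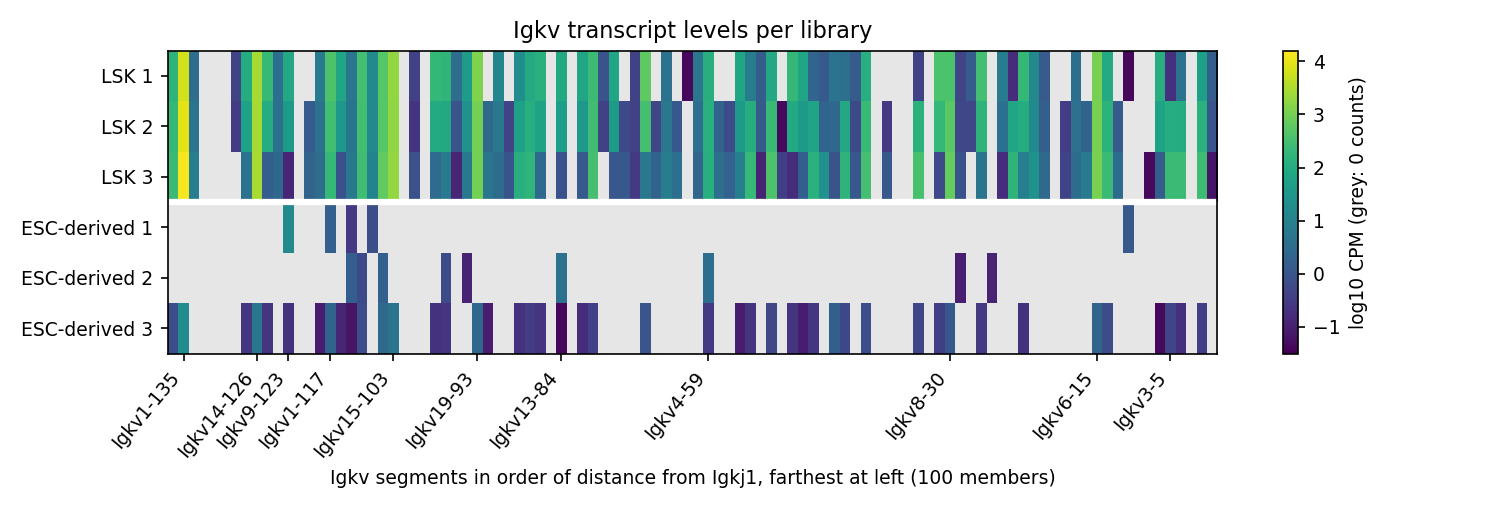
Levels of the 100 Igkv segments (columns, in order of distance from Igkj1 with the farthest at left) in each of the 6 libraries (rows), as log10 of CPM, with 0 counts in grey. The 3 LSK rows have counts for 70 to 81 segments, while ESC-derived 1 and 2 have counts for 5 and 9 and ESC-derived 3 for 45.

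Igkv1-135 led the kappa repertoire of every LSK library. This segment (ENSMUSG00000096336, chr6:67609713-67610508, plus strand) lies 3112.1 kb from Igkj1, near the far end of the locus. It had 306251, 426769 and 614481 counts in LSK 1 to 3, or 6316, 9341 and 13379 CPM, and 0, 0 and 867 counts in ESC-derived 1 to 3. LSK 3 was 2.12 times as high as LSK 1, and every LSK library stood far above ESC-derived 3, the only ESC-derived library with counts. The log2 fold change, ESC-derived minus LSK, was -10.62 ± 2.37 (SE, adjusted p = 0.0159, edgeR quasi-likelihood test). Without ESC-derived 3 the segment was at 0 and at least 68062-fold lower against the floor (adjusted p = 0.000434, edgeR). Without LSK 2 its log2 fold change was -10.66 (adjusted p = 0.0455, edgeR).

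Usage was measured as a segment's share of the summed Igkv counts per kb of exon. Igkv1-135 took 31.3, 41.5 and 49.8% of the total in LSK 1 to 3. Its share of plain counts was 32.9% in LSK 1 (95% exact binomial interval 32.7 to 33.1%), 43.3% in LSK 2 (43.1 to 43.5%) and 51.6% in LSK 3 (51.4 to 51.8%). The intervals, computed at 4 counts per fragment, cover counting error only and are much narrower than the differences between libraries. The next 2 segments were the same in the 3 LSK libraries. Igkv14-126 (chr6:67896172-67896642, plus) took 14.9, 13.1 and 11.4%, and Igkv15-103 (chr6:68437440-68437925, plus) took 9.90, 8.53 and 7.29%.

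Igkv14-126 and Igkv15-103 hardly differed in level between LSK libraries, and their shares were lowest where Igkv1-135 was highest. Igkv14-126 stood at 2732, 2672 and 2781 CPM and Igkv15-103 at 1901, 1828 and 1865 CPM in LSK 1 to 3. In the ESC-derived libraries both had counts in ESC-derived 3 alone, 254 and 232. Their log2 fold changes were -10.55 ± 1.86 (adjusted p = 0.00656) and -10.13 ± 1.80 (adjusted p = 0.00672, both edgeR). Without ESC-derived 3 both were at 0 in the group, at least 19187-fold and 13113-fold lower against the floor (adjusted p = 4.11e-05 for each, edgeR). Without LSK 2 their log2 fold changes were -10.58 (adjusted p = 0.024) and -10.16 (adjusted p = 0.0248, both edgeR).

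Per kb of exon, the mean LSK level was 24565 CPM per kb for Igkv1-135, 7621 for Igkv14-126 and 4972 for Igkv15-103. Igkv6-15 (3121), Igkv19-93 (2999.6), Igkv8-30 (1485), Igkv16-104 (1448) and Igkv4-79 (818 CPM per kb) followed. The first 3 kept this order in each library. Igkv6-15, at 1083 ± 52.8 CPM, and Igkv19-93, at 1089 ± 132 CPM, did not differ beyond their spread, nor did Igkv8-30 (546 ± 164 CPM) and Igkv16-104 (547 ± 71.3 CPM). These 8 segments come from 8 families and lie between 315.6 and 3112.1 kb from Igkj1. Each passed the test as lower in ESC-derived cells, with log2 fold changes from -10.91 (Igkv4-79, SE 0.96) to -8.42 (Igkv16-104, SE 1.14). Apart from Igkv16-104, which had 76 counts in ESC-derived 2, the ESC-derived counts of these 8 were in ESC-derived 3 alone. Without that library Igkv6-15 was at least 7616-fold, Igkv19-93 at least 7657-fold, Igkv8-30 at least 3843-fold and Igkv4-79 at least 2058-fold lower, and the log2 fold change of Igkv16-104 was -9.25 (adjusted p = 0.00753, edgeR). Without LSK 2 the 8 segments stayed lower, with adjusted p from 0.0029 (Igkv4-79) to 0.0455 (Igkv1-135, both edgeR).

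The 5 leading segments, which were the same in the 3 LSK libraries, held 68.7, 73.4 and 77.4% of usage, and 18, 19 and 13 segments were enough for 90%. The effective number of segments, the inverse of the sum of squared shares, was 7.02, 4.88 and 3.66 in LSK 1 to 3. LSK 3 was thus the most dominated and LSK 1 the most even. Of the 100 members, 44 exceeded a mean LSK share of 0.1%.

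**Figure D2:**
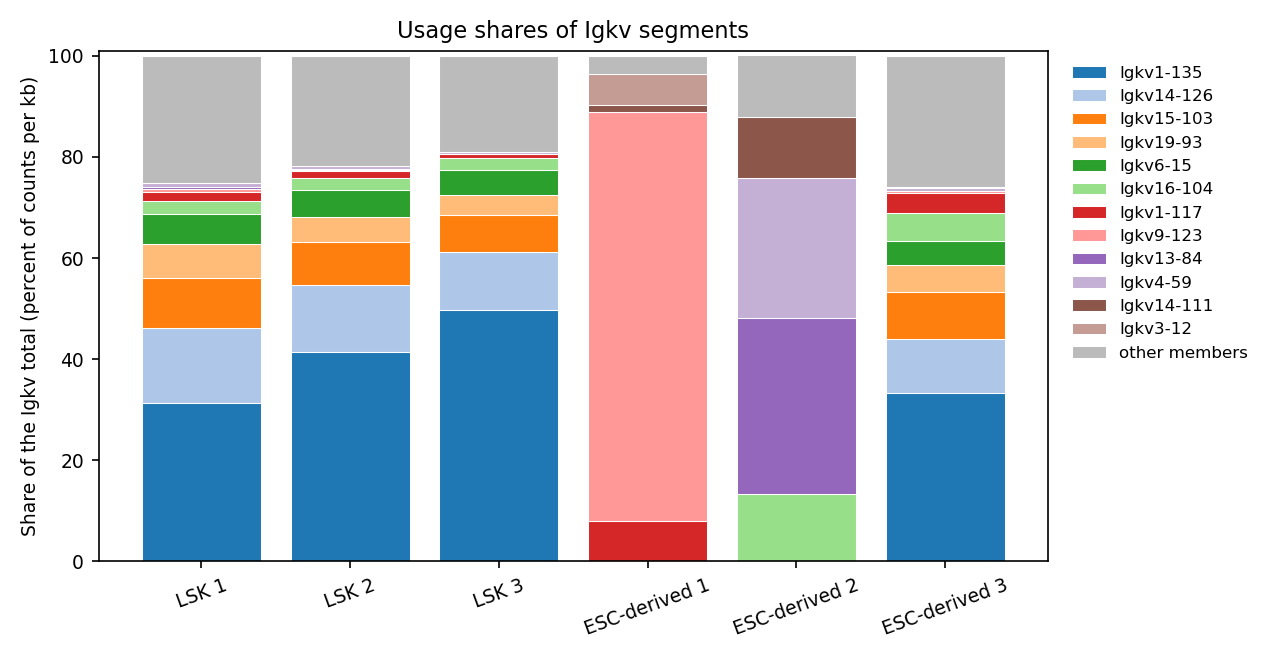
Share of the summed Igkv counts per kb held by 12 segments, with all other members in grey, in each of the 6 libraries (bars add up to 100%). Igkv1-135 is the largest part of the 3 LSK bars (31.3 to 49.8%) and of ESC-derived 3 (33.3%), while Igkv9-123 fills 81.0% of ESC-derived 1 and Igkv13-84 is the largest part of ESC-derived 2 (34.9%).

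Usage was concentrated at the end of the locus far from the J segments. The 25 members farthest from Igkj1 (2180.1 to 3166.3 kb) held 65.5, 70.2 and 73.6% of usage in LSK 1 to 3, and the 25 nearest (18.4 to 583.5 kb) held 10.3, 9.88 and 9.67%. Segments in the deletion orientation held 67.7, 72.7 and 76.6%. Much of this was Igkv1-135: without it the far members held 49.8, 49.0 and 47.4%, and the deletion orientation 53.0, 53.4 and 53.3%. Of the 25 far members, 19 had LSK counts.

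Among families, family 1 held 35.3, 44.8 and 52.3% of usage in LSK 1 to 3, most of it Igkv1-135, with 5 of its 10 members detected. Family 4, the biggest, with 26 members at 1021.3 to 1967.0 kb, had counts for 25 of them, yet held 8.79, 6.57 and 4.51%. Families with 1 member were at both extremes. Igkv15-103, Igkv19-93 and Igkv16-104 had mean LSK shares of 8.57% ± 1.30, 5.22% ± 1.34 and 2.46% ± 0.0571, while those of families 7, 18 and 20 were not detected.

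The LSK libraries shared their leading segments and differed in the minor ones. By a rule chosen after the values were seen (a mean LSK level of at least 1 CPM and a 10-fold difference), 19 members of 12 families were at least 10 times as high in LSK 1 as in LSK 3, 14 members of 7 families were at least 10 times as high in LSK 3 as in LSK 1, and 33 differed less. The other 34 members were under 1 CPM. The first set held 16.7% of usage in LSK 1, 7.66% in LSK 2 and 0.192% in LSK 3. The second held 0.111, 3.43 and 6.08%. That these sets differ between LSK 1 and LSK 3 follows from the rule that made them. Both sets were present in LSK 2 at intermediate levels.

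Igkv4-50 (chr6:69700767-69701287, minus) had 9612, 4502 and 8 counts in LSK 1 to 3, and Igkv9-123 (chr6:67954228-67954714, minus) had 4150, 1820 and 6. The opposite order was seen for Igkv3-5 (chr6:70663275-70663895, plus), with 9, 5256 and 11378 counts, and for Igkv8-24 (chr6:70216858-70217421, minus), with 8, 3342 and 7328. Among segments with a mean LSK level of 50 CPM or more, Igkv3-5, Igkv4-50 and Igkv8-24 had the largest ratios between LSK libraries, 1335, 1138 and 967. In each, the low library was at or under 12 counts and LSK 2 lay near the middle.

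The position of LSK 2 can be written as the weight of LSK 1 in a weighted mean of LSK 1 and LSK 3. Over the 19 members high in LSK 1 this weight had a median of 0.497 (range 0.233 to 0.557), and over the 14 members high in LSK 3 a median of 0.539 (0.298 to 0.962). Where LSK 1 and LSK 3 differed at least 4-fold, LSK 2 lay between them for 51 of 54 members (94.4%), beside 71.4% of all tested genes under the same rule. The Spearman coefficient over the 100 members was 0.89 between LSK 1 and LSK 2, 0.87 between LSK 2 and LSK 3 and 0.64 between LSK 1 and LSK 3. These are descriptions over segments of the same libraries, which are not independent, and whether LSK 2 is a mixture was not tested.

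**Figure D3:**
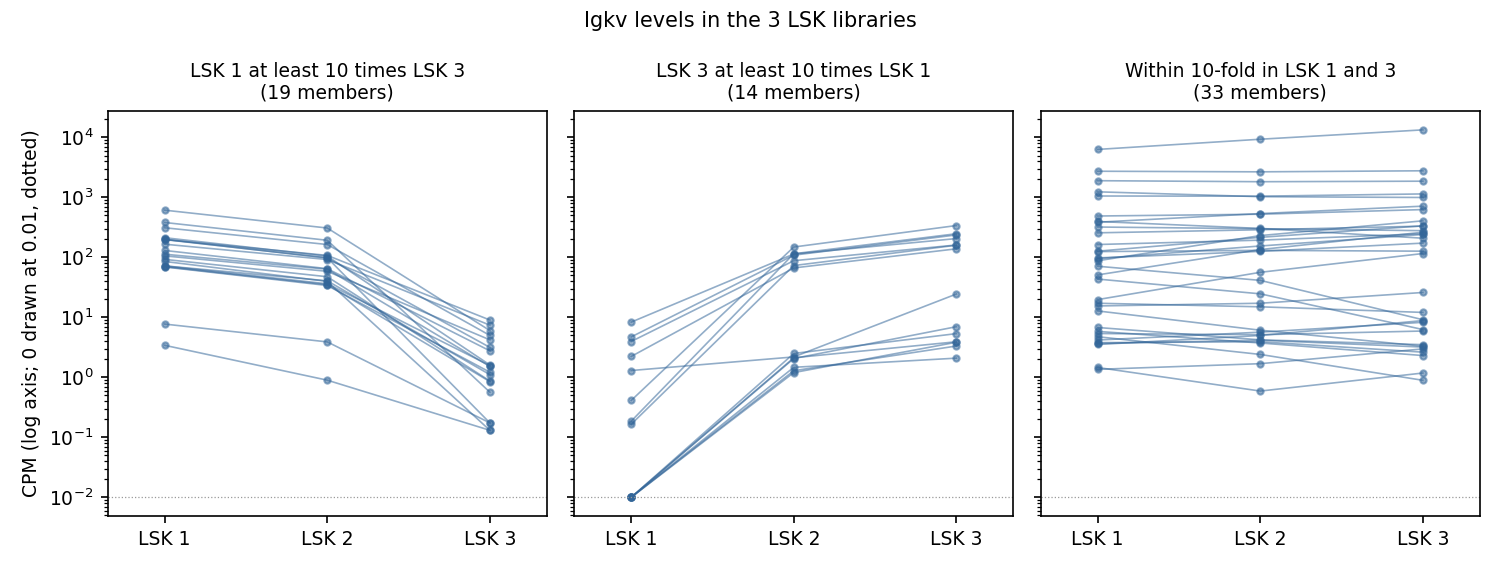
CPM of single segments (lines) in the 3 LSK libraries on a log axis, with 0 drawn at 0.01, for the 19 members at least 10 times as high in LSK 1 as in LSK 3, the 14 with the opposite difference and the 33 that differed less. LSK 2 lies between the other libraries for all lines of the first 2 panels, and the third panel holds the leading segments.

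The comparison of ESC-derived with LSK cells was tested over all genes. Of the 100 members, 60 passed the low-count filter. Of these, 55 were lower in ESC-derived cells (adjusted p under 0.05, edgeR quasi-likelihood test), beside 15.2% of all 16211 genes tested, and 0 were higher, beside 14.8%. At an unadjusted p under 0.05 (edgeR) the number higher was also 0. With DESeq2 and limma-voom it was 0 at an adjusted p under 0.05. Members passed the filter mostly through their LSK counts, so 55 of 60 is not evidence about the members. Some also needed an ESC-derived library, such as Igkv9-123, with 6 counts in LSK 3 and 727 in ESC-derived 1. LSK values lay above all ESC-derived values without overlap for 54 of the 60, beside 27.2% of all genes tested.

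The 40 untested members were 16 with 0 LSK counts, 23 with fewer than 1000, and Igkv8-24, which had 8 counts in LSK 1 and 0 in the ESC-derived libraries. Against the floor its ESC-derived level was at least 852-fold lower, with no test. The lowest LSK members with counts were Igkv4-62, Igkv3-12 and Igkv3-9, each with 2 counts in 1 LSK library.

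Among the 55 called members, 25 had over 12 ESC-derived counts, and their log2 fold changes ran from -10.91 to -5.91. A further 17 had 1 to 12 counts. The remaining 13 were at 0, with lower bounds of 3.99-fold to 417-fold, the highest for Igkv4-74, with 3502, 1861 and 51 counts in LSK 1 to 3. Over the 60 tested members the log2 fold changes had a median of -9.94, or -9.46 with members at 0 set to their bound, and over all genes tested of -0.07. The number called was 47 of 80 tested without ESC-derived 3, of which 46 were among the 55, 47 of 60 without LSK 2, and 27 of 58 without both. With limma-voom it was 31.

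Of the tested members, 5 were not called. Igkv9-123 had 85.6, 39.8 and 0.131 CPM in LSK 1 to 3 and 17.3, 0 and 0.211 CPM in ESC-derived 1 to 3 (log2 fold change -2.84 ± 2.30, adjusted p = 0.415). Igkv13-84 had 92.7, 47.6 and 0.871 CPM in LSK and 0, 4.32 and 0.0422 CPM in ESC-derived libraries (-5.02 ± 2.17, adjusted p = 0.134, both edgeR). In both the groups overlapped, since LSK 3 was low and 1 ESC-derived library was high. Overlap was also seen for the uncalled Igkv12-44, and for Igkv4-50, Igkv3-5 and Igkv8-34, which were called lower. Igkv12-44 had 231, 110 and 41 counts in LSK and 78 in ESC-derived 3 alone, where its 1.65 CPM was 61.3% of its LSK mean, and it was called lower without that library (adjusted p = 0.0223, edgeR). Igkv14-111 (adjusted p = 0.0866) and Igkv6-29 (adjusted p = 0.084, both edgeR) were also not called. Igkv14-111 had 5.38, 5.14 and 5.92 CPM in LSK and 0.285, 1.58 and 0.0634 CPM in ESC-derived libraries, without overlap.

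Kappa usage in ESC-derived 1 and 2 bore little likeness to LSK usage. In ESC-derived 1, Igkv9-123 had 727 of 899 Igkv counts (80.9%, 95% exact binomial interval 75.1 to 85.8% at 4 counts per fragment), followed by Igkv1-117 with 76 and Igkv3-12 with 53. Igkv9-123 took a mean of 0.210% ± 0.222 of LSK usage, and Igkv3-12 had 2 LSK counts in all. The effective number was 1.5.

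In ESC-derived 2, Igkv13-84 had 183 of 549 Igkv counts (33.3%, interval 25.7 to 42.1%) and Igkv4-59 had 154 (28.1%, interval 20.4 to 36%). Igkv16-104 with 76 and Igkv14-111 with 67 came next, and the effective number was 4.26. Igkv4-59 (chr6:69438218-69438757, minus) was steady in LSK cells, at 125, 131 and 127 CPM, and stood at 0, 3.64 and 0.296 CPM in ESC-derived 1 to 3, a log2 fold change of -6.61 ± 1.37 (adjusted p = 0.012, edgeR). The Spearman coefficient with the LSK libraries was at most 0.10 for ESC-derived 1 and at most 0.18 for ESC-derived 2, and 0.08 between the 2. Of the 100 members, 95 and 91 were at 0 in these libraries, and the tied ranks limit how high a coefficient could be. Igkv1-135, Igkv14-126 and Igkv15-103, the leading LSK segments, were at 0 in both.

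ESC-derived 3 showed the LSK usage at a low level. Its first 3 segments were Igkv1-135 with 33.3%, Igkv14-126 with 10.7% and Igkv15-103 with 9.35% of usage, in the LSK order, and its effective number was 6.95. The Spearman coefficient was 0.80, 0.87 and 0.71 with LSK 1 to 3. The usage shared with LSK 1 to 3 (the sum over members of the smaller share) was 81.9, 85.3 and 77.9%. Between LSK libraries it was 84% for LSK 1 and 2, 86.9% for LSK 2 and 3 and 70.9% for LSK 1 and 3. Of the 36 members with a mean LSK level of 50 CPM or more, 35 had counts in ESC-derived 3, as against 1 in ESC-derived 1 and 4 in ESC-derived 2. The exception was Igkv8-24.

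The ratio to LSK varied little over most of these 36 members. Their ESC-derived 3 level was a median of 0.239% of the LSK mean (quartiles 0.205 and 0.335%), the highest was 0.731% for Igkv1-117, and the sum was 0.231%. Minor segments of both LSK ends were present: ESC-derived 3 had counts for 16 of the 19 members high in LSK 1, at 0.248% of their summed LSK level, and for 7 of the 14 high in LSK 3, at 0.304%. None of those 14 had counts in ESC-derived 1 or 2.

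Some other genes, chosen after their values were seen, were at like percentages in ESC-derived 3. Igkc was at 0.286% of its LSK mean, Igha, the alpha heavy chain constant region, at 0.191%, Jchain, which links secreted IgA and IgM, at 0.188%, and the progenitor genes Flt3, Cd34 and Kit at 0.190, 0.239 and 0.260%. Meis1 was at 0.36% and Mecom at 0.611%. Higher percentages were seen for Procr (1.13%), for Ighm, the mu heavy chain constant region (1.53%), and for Hlf, a stem cell transcription factor (11.5%), and Hoxa9 was at 0. In ESC-derived 1 and 2, Igha and Flt3 were at 0, Igkc was at 0.1 and 0.0897%, Jchain at 0.14 and 0.033%, Kit at 0.0978 and 0.194% and Meis1 at 0.203 and 0.302%. Ighm was at 1.54 and 1.23% in these libraries, so its level was not particular to ESC-derived 3. The percentages of Kit and Meis1 rest on at most 8 counts a library. The cause of the likeness to LSK was not tested.

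**Figure D4:**
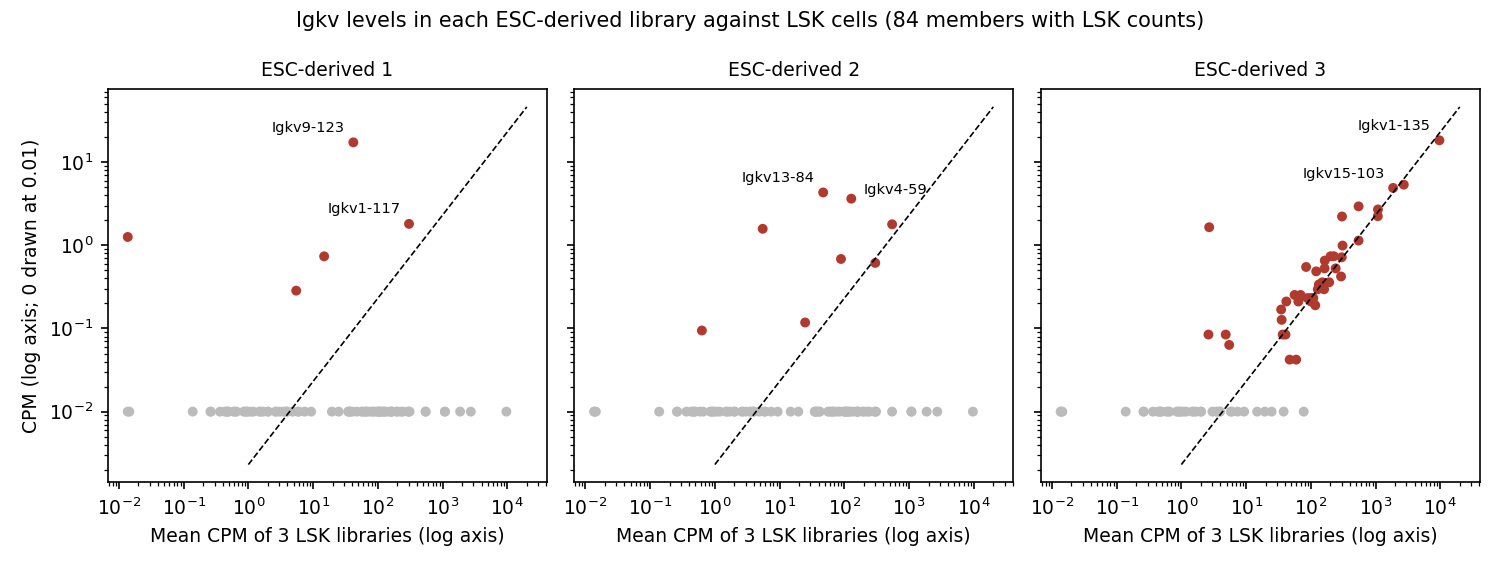
CPM of each of the 84 members with LSK counts in ESC-derived 1, 2 and 3 (vertical log axis, 0 drawn at 0.01 in grey) against the mean CPM of the 3 LSK libraries (horizontal log axis), with the dashed line at 0.231% of the LSK mean in every panel. Most points of ESC-derived 3 with an LSK mean of 50 CPM or more lie near the line. Below that mean many members are at 0, and some lie well above the line, such as Igkv12-44 at 61.3% of its LSK mean. The few points of ESC-derived 1 and 2 lie mostly above the line, and most members are at 0 in these libraries.

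The other kappa transcripts were compared with the V segments. Igkc, the single kappa constant exon, had 25311, 30531 and 36519 CPM in LSK 1 to 3 and 30.9, 27.6 and 88.1 CPM in ESC-derived 1 to 3, without overlap, a log2 fold change of -9.30 ± 0.64 (adjusted p = 0.000141, edgeR). Per kb, summed V counts were 1.08, 0.995 and 0.993 times Igkc counts in LSK and 0.975, 0.689 and 0.844 times in ESC-derived 1 to 3. V and C counts were thus near parity in LSK libraries. The J segments Igkj1 to Igkj5, which are very short, had 41, 16 and 52 counts in all in LSK and 0, 5 and 0 in ESC-derived libraries.

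Other light and heavy chain genes were lower in ESC-derived cells as well. Beside the counts called in these and the following gene lists, 15.2% of all 16211 genes tested were lower and 14.8% higher. All 6 tested lambda genes were lower, among them Iglv1, a lambda V segment (1018 ± 20.5 CPM in LSK, 1.24 ± 2.15 in ESC-derived, log2 fold change -9.65 ± 1.66), as were 5 of 6 tested heavy chain constant genes. Igha fell from 3818 ± 405 to 2.44 ± 4.22 CPM and Ighm from 13466 ± 2087 to 193 ± 23.2 CPM. Ighd was not called (adjusted p = 0.202, edgeR). The surrogate light chain, which stands in for the light chain in precursor B cells, had 4 of 4 genes lower, among them Vpreb1 (53.5 ± 3.58 against 1.74 ± 1.52 CPM) and Vpreb3 (51.4 ± 7.90 against 0.0563 ± 0.0976 CPM).

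Of 9 tested genes of V(D)J joining, 3 were lower, 0 higher and 6 not called. Rag2, a subunit of the recombinase, had 232, 113 and 12 counts in LSK and 0 in ESC-derived libraries. Rag1, the other subunit, had 8 counts in LSK 3 alone and was not tested. Dntt, which adds bases at the joints, had 275 ± 23.3 CPM in LSK and 0.173 ± 0.222 in ESC-derived cells (log2 fold change -10.56 ± 0.77, adjusted p = 0.000186, edgeR). Of the end-joining factors Xrcc6 was lower (-0.62 ± 0.13), and Xrcc5 was not called (0.39 ± 0.32).

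Of 15 transcription factors that act on the kappa locus or B cell identity, 7 were lower and 1 higher. Spi1 (PU.1) stood at 288 ± 18.5 CPM in LSK and 6.07 ± 4.12 in ESC-derived cells, and Ebf1 at 9.04 ± 4.77 and 0.0878 ± 0.0847. Pax5, which maintains B cell identity, was low in both, at 1.23 ± 0.623 and 0.0563 ± 0.0976 CPM (adjusted p = 0.0995, edgeR). The higher gene was Ikzf3 (Aiolos), at 5.66 ± 1.03 and 157 ± 1.88 CPM, which T cells express too.

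Some markers of antibody-secreting and B cells were lower in ESC-derived cells. Of 11 plasma cell markers 7 were lower and 2 higher (Slamf7 and Prdm1, which activated T cells also express), with summed levels of 4327 to 5064 CPM in LSK and 379.9 to 1467 in ESC-derived libraries. Jchain accounted for 4289 ± 314 CPM of the LSK sum. The ESC-derived sums were mostly Slamf7, at 241 ± 29.6 CPM, and Prg2, which eosinophils express strongly, at 50.6, 1139 and 136 CPM (not called, adjusted p = 0.0568, edgeR). Tnfrsf17, the plasma cell receptor BCMA, had 153, 394 and 505 counts in LSK 1 to 3 and 0 in ESC-derived libraries. Of 12 tested B cell markers 6 were lower, 0 higher and 6 not called. All 10 T cell markers were higher in ESC-derived cells. The part of plasma, B and T cells in the kappa result was not tested.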

How the data were processed

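Per the labels' protocols, SMART-Seq v4 cDNA of 2000 sorted cells per library (poly(A)-primed, without strand information) was sequenced after Nextera XT preparation. HISAT, StringTie and mm10 are named, without roles, in the submitters' processing notes. Annotation and settings were not given in the sources used here. Estimated counts per Ensembl gene ID were deposited by the authors as whole numbers, not normalized. Of the values from 1 to 20, 40.1 to 47.2% per library were divisible by 4, so a fragment was often worth about 4 counts and the floor for genes at 0 was 12 counts over a group. Of the 55401 IDs, 55141 matched GENCODE M21, and 260 did not.

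The counts were filtered with filterByExpr (16211 genes kept), scaled with TMM and tested, ESC-derived minus LSK, with the two-sided quasi-likelihood F test of edgeR 4.0.16 (R 4.3.3, robust fit, Benjamini-Hochberg adjustment over all genes, threshold 0.05), with 3 libraries per group and no block. CPM values are TMM-scaled. Ratios to groups at or under the floor are bounds. Alternatives were DESeq2 1.42.0, limma-voom (limma 3.58.1), other scalings, filters and library sizes, values divided by 4, a 2-fold test, a replicate block and each library left out. Leaving out LSK 2 and ESC-derived 3 together was added after seeing the data. Sequences and identities (Biopython 1.88) come from the M21 transcripts.

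The members and the gene lists were chosen with earlier results of these data known. The rule for named members took the 8 highest in LSK per kb, the 5 highest in ESC-derived cells, the leading 2 of each library, any higher member, the 3 with the largest ratios among LSK libraries at a mean of 50 CPM or more, the 3 lowest with LSK counts and the most alike pair. From the gene lists it took up to 2 members each, and other genes were chosen after their values were seen.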

Additional observations from a re-analysis of the deposited data

How the results depend on the processing

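The number of Igkv members lower in ESC-derived cells was 55 of 60 tested. Under 10 alternative tests, scalings, filters and library sizes it ran from 31 with limma-voom (60 tested) to 55, and it was 47 to 61 with each library left out. With LSK 2 and ESC-derived 3 both left out it was 27 of 58, with the spread estimated from 2 libraries per group. No alternative called a member higher. No clear sign was seen that replicate numbers pair the libraries (same-number deviations correlated at 0.004, 0.054 and 0.006 over 16211 genes). Such correlations cannot exclude a pairing, and the replicate block left 41 of 60. Of 282 values of the 16 tested named members under 18 alternatives, 261 kept their direction and side of the threshold, 20 lost the call (8 each for Igkv3-5 and Igkv4-50, which differ most between LSK libraries, 2 for Igkv5-43, and 1 each for Igkv5-45 and Igkv4-59), 1 gained it (Igkv13-84 without ESC-derived 2, log2 fold change -10.88, adjusted p = 0.0401, edgeR, from a range of 0.0401 to 0.412 over its alternatives) and 0 reversed. Without Igkv1-135 the mean LSK values were 1.37% of all counts, 22.2% for the leading segment, 59.5% for the first 5 and an effective number of 10.3, as against 2.41%, 40.9%, 73.1% and 5.19 with it. Grouping by family gave 80.4% for the first 5. With each LSK library left out these were 2.27 to 2.53%, 36.4 to 45.7%, 71.0 to 75.4% and 4.27 to 5.95. In ESC-derived cells they were 0.00154 to 0.00352%, 34.1 to 57.9%, 78.7 to 96.6% and 2.88 to 5.60, and 549 to 2507 counts per library limit these shares. Taking shares by family or without exon length does not change the percentage of all counts, so those alternatives gave no value.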

Other observations

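Of the 60 Igkv rows annotated as pseudogenes, few had counts, 338, 333 and 275 in all in LSK 1 to 3 and 54, 0 and 0 in ESC-derived 1 to 3. Igkv4-75 held most of the LSK counts, with 195, 218 and 188. Igkv4-73 had 69, 18 and 0 and Igkv12-40 had 0, 27 and 60 counts in LSK 1 to 3, so LSK 2 lay between the others in both. The 54 counts of ESC-derived 1 were all in Igkv2-116, which had 3, 8 and 27 in LSK 1 to 3.

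Precursor B cell genes differed among the LSK libraries, and the larger differences were falls from LSK 1 to LSK 3. Igll1, a surrogate light chain component, had 2275, 1372 and 752 counts in LSK 1 to 3 and Rag2 had 232, 113 and 12. Vpreb2 stood at 17.7, 13.1 and 8.54 CPM and Bst1 at 6.08, 3.24 and 1.96 CPM. Vpreb3 stood at 55.1, 56.9 and 42.4 CPM and Vpreb1 at 54.8, 56.2 and 49.4 CPM. Smaller rises were seen for Dntt (255, 269.7 and 300.2 CPM), Cd24a (133, 146 and 162 CPM) and Il7r (9.77, 10.5 and 10.5 CPM). Rag1 had 0, 0 and 8 counts. The plasma cell markers did not all move together. Tnfrsf17 had 153, 394 and 505 counts in LSK 1 to 3, and Mzb1 stood at 114, 132 and 183 CPM. Sdc1 stood at 24.4, 28.6 and 21.2 CPM and Slamf7 at 25, 25.2 and 24.9 CPM. These genes were chosen after their values were seen, and no test was made.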
